A study of Mus musculus with 25 samples.

Results

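The genes described here are 38 endothelial and arterial genes, chosen by name but with earlier results of these data known. All 38 were found among the 37406 genes of the expression table. The study had already reported Gja5, and Actg2 of the smooth muscle genes below, as higher in anterior lateral than in anterior medial palate. The names on the list are those of cell type genes. The 38 genes mark the lining of blood vessels, or, for Gja4, Gja5 and Gkn3, the lining of arteries. Ptprb had 2 rows with the same symbol, of which 1 was listed at 0 in every library and was left out. Expression was measured by RNA-seq of total RNA taken by laser capture microdissection from the palate of wild type CD1 mouse embryos at E14.5. The 25 libraries cover 8 compartments, which are medial, lateral, oral and nasal palate of an anterior and a posterior level. There were 3 libraries per compartment and 4 for the anterior nasal palate. Medial against lateral and oral against nasal are different ways of dividing the shelf, so the 4 positions of a level are not 4 separate tissues. All libraries are labelled wild type CD1, although some alignment names in the tables of the study put the name of a gene before WT, and the origin of those wild types was not settled. The labels do not say whether libraries of a compartment came from separate embryos, so p-values measure the spread between these captures. The comparisons address which genes differ between regions of the forming palate.

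Endothelial cells line every blood vessel and are held together by junction proteins such as VE-cadherin (Cdh5). They respond to VEGF through the receptors Kdr, Flt1 and Flt4, and to angiopoietins through Tek, whose partner is Tie1. Transcription factors of the SOX F group (Sox7, Sox17, Sox18) and the ETS group (Erg, Fli1, Ets1) keep the endothelial programme, and in arteries Notch signalling acts with it. The connexins Gja5 and Gja4 form the gap junctions of arterial endothelium.

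Values are RPKM, read counts scaled by transcript length and by the mapped reads of the library, so levels of different genes can be set side by side. The smallest steps between values imply 1.64 to 6.56 megareads counted per library, with a median of 3.27 megareads, at which 1 read on a transcript of 2000 bases is worth 0.153 RPKM. Posterior medial replicate 2 and anterior oral replicate 1 stood apart: their mean correlations with replicates of their compartments were 0.652 and 0.703, the lowest of the 25. Anterior oral replicate 1 was also the shallowest library, at 1.64 implied megareads. The libraries came from 8 sequencing runs, and the lateral and medial libraries of the same level share no run, so that run and position cannot be told apart in those comparisons. Msx1, a gene of the anterior palate mesenchyme, averaged 8.74 RPKM in the anterior and 0.313 RPKM in the posterior libraries.

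The endothelial genes were present throughout the palate. Of the 38 genes, 36 were above 0 in every library, 33 had a mean over 5 RPKM and 22 a mean over 10 RPKM. Cdh5 had the highest mean level, 52.8 RPKM over the 25 libraries, and ranged from 22.9 RPKM in posterior medial replicate 2 to 86.3 RPKM in anterior oral replicate 3. Ramp2, the partner of the adrenomedullin receptor, followed at a mean of 44.3 RPKM, Cd34 at 34.7 RPKM, the apelin receptor Aplnr at 33.6 RPKM and the secreted vessel factor Egfl7 at 32.0 RPKM. Pecam1, an adhesion molecule of endothelial junctions, averaged 24.0 RPKM. Among the VEGF receptors the mean levels were close to each other, at 11.5 RPKM for Kdr, 11.8 RPKM for Flt4 and 8.92 RPKM for Flt1. Gkn3, Sox17, Vwf, Esm1 and Tal1 had means under 5 RPKM.

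The compartments with the extreme means were few. The posterior oral palate had the highest mean for 16 of the 38 genes, the anterior oral palate for 10 and the anterior lateral palate for 7. The posterior nasal palate had the lowest mean for 22 genes and the anterior nasal palate for 8, and neither nasal compartment had the highest mean for any of the 38. Posterior medial replicate 2 was the lowest of the 25 libraries for 17 genes, among them Eng at 0.278 RPKM, Apln at 0.135 RPKM and She at 0.0741 RPKM. The same library was the highest for 3, with Lyl1 at 32.4 RPKM, Egfl7 at 58.5 RPKM and Mmrn2 at 14.6 RPKM, so not all of its values were low. It had 12935 genes above 0, the fewest of the 25 libraries, and the next fewest were 16330 in posterior lateral replicate 2.

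**Figure D1:**
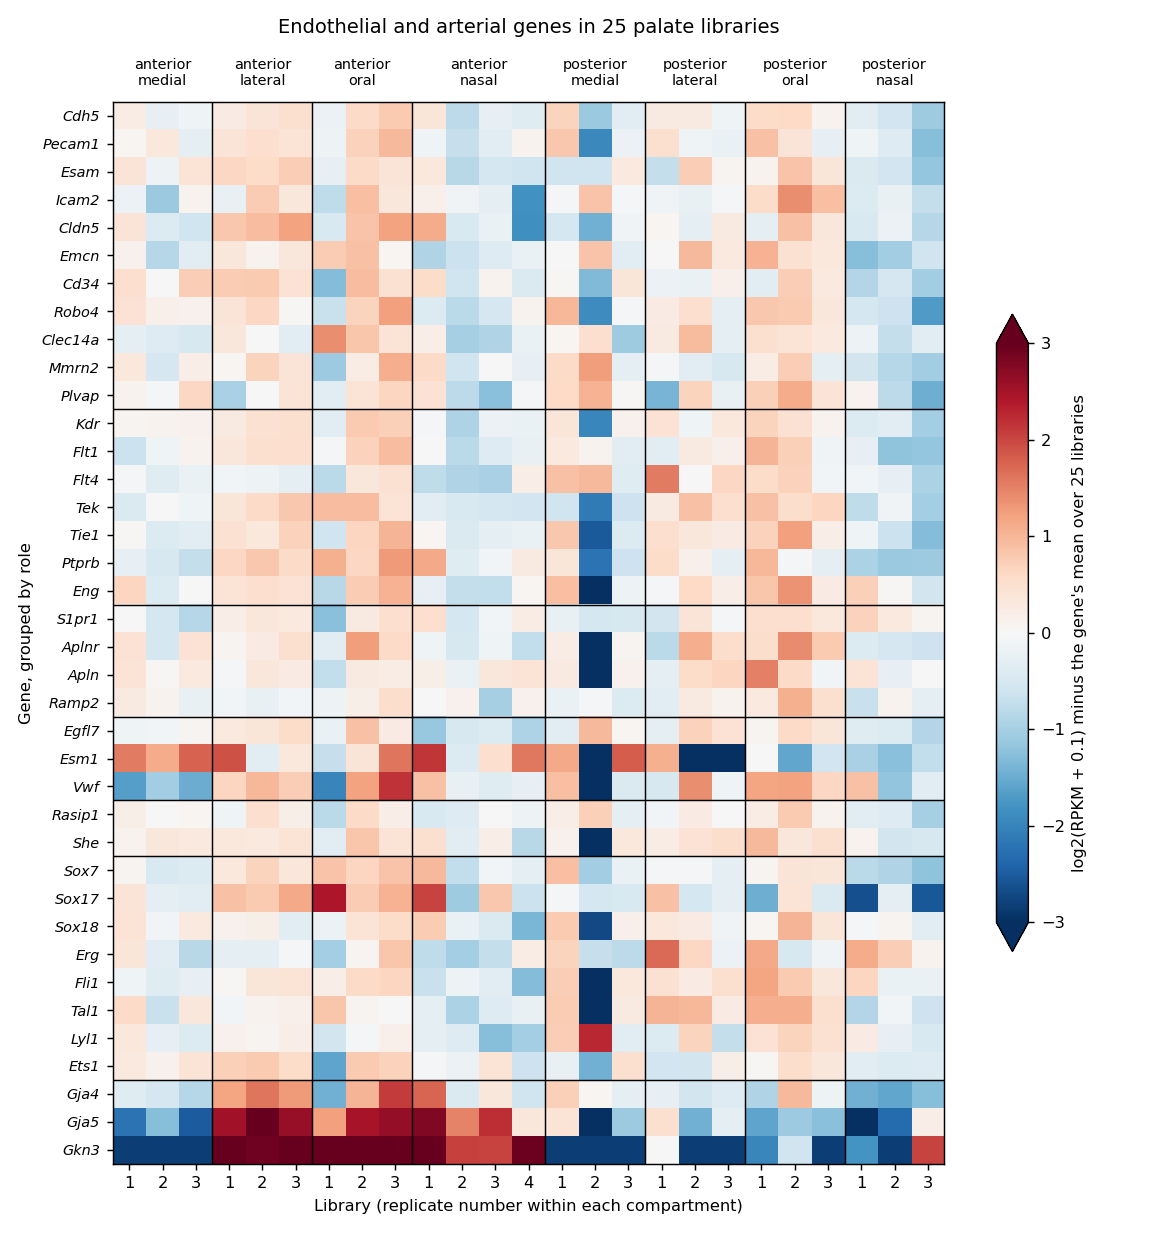
Each row is a gene, grouped by role, and each column a library; colour gives log2(RPKM + 0.1) minus that gene's mean over the 25 libraries, cut at -3 and 3. Gja5 and Gkn3, in the arterial rows at the bottom, are high in the anterior lateral, oral and nasal libraries and low in the anterior medial and most posterior libraries; posterior medial replicate 2 stands out as a column of mostly low values.

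A test for any difference among the 8 compartments called 4 of the 35 genes that passed its minimum, Gkn3, Tek, Gja5 and Emcn, at an adjusted p under 0.05 (limma with Benjamini-Hochberg adjustment over 11913 genes, of which 4.42% were called). The adjusted p was 3.62e-05 for Gkn3, 0.00221 for Tek, 0.00356 for Gja5 and 0.0224 for Emcn. Gkn3 was listed at 0 in 10 libraries, which share 1 value on the log2(RPKM + 0.1) scale, so its p leaves out their counting error. The number of called genes rose to 9 without posterior medial replicate 2, and to 15 without that library and anterior oral replicate 1. It was 2 when the sequencing run was added to the fit.

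Gja5 and Gkn3 had the widest ranges between compartments. The windows around their start sites are shown because the results below turn on these 3 genes. Each window runs from 250 bases before to 50 after the start and was taken from RefSeq on GRCm38.p6 in the direction of the gene, with matches to 4 motifs on either strand in capitals. Of the 38 genes, 22 had at least 1 window in the table, 27 windows in all. The ETS motif CAGGAA was found in 15 of those 27, 55.6%, and in 30.6% of all 32851 windows. A second ETS motif, CCGGAA, was found in 2 of the 27 and in 14.9% of all windows. The SOX motif AACAAT was in 3 of the 27 and in 10.7% of all windows. The motif of GATA factors that was searched, AGATAA, was in 4 of the 27 and in 11.2% of all windows. These matches are a description of letters and not of bound sites. The Gja5 window is chr3:97032152-97032451 on the + strand, that of Gja4 chr4:127313990-127314289 on the - strand, and that of Gkn3 chr6:87388886-87389185 on the - strand.
Gja5: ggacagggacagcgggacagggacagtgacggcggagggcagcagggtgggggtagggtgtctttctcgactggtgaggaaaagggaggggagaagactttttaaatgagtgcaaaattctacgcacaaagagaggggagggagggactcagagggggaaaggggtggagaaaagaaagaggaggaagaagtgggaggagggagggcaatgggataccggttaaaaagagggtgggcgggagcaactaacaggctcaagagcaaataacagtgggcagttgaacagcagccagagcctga
Gja4: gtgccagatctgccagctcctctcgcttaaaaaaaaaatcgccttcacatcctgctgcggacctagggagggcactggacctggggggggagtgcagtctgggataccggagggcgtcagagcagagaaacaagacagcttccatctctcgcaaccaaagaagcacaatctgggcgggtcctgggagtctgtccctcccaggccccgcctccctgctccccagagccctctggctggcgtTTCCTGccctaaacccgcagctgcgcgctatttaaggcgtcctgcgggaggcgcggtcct
Gkn3: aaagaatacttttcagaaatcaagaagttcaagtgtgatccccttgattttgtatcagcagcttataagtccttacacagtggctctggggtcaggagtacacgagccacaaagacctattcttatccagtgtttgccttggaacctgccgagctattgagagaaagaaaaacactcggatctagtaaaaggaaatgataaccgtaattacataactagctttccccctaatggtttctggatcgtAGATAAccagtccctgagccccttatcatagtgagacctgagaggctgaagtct
Gja5 had none of the 4 motifs in this window, Gja4 had 1 CAGGAA match and Gkn3 had 1 AGATAA match.

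Gja5, the connexin 40 gene, was high in the anterior lateral palate, at 28.1, 42.4 and 30.0 RPKM in the 3 libraries. In the anterior medial palate it was at 0.966, 1.93 and 0.779 RPKM, below every lateral library. The anterior oral libraries had 11.6, 27.2 and 30.6 RPKM and the anterior nasal libraries 33.4, 13.8, 22.8 and 6.10 RPKM. Posteriorly the medial libraries had 6.44, 0.134 and 2.21 RPKM and the lateral libraries 6.84, 1.72 and 3.93 RPKM. The posterior oral libraries had 1.56, 2.21 and 1.97 RPKM and the posterior nasal libraries 0.494, 0.902 and 5.54 RPKM. Leaving out the medial compartments, the 10 anterior libraries lay between 6.10 and 42.4 RPKM and the 9 posterior libraries between 0.494 and 6.84 RPKM, and the ranges overlapped through anterior nasal replicate 4 and posterior lateral replicate 1.

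Gja4, the connexin 37 gene, had a related but weaker pattern. It measured 16.6, 22.4 and 17.8 RPKM in the anterior lateral and 5.65, 5.07 and 3.99 RPKM in the anterior medial libraries. The anterior oral libraries spread from 2.63 RPKM in replicate 1 to 14.8 and 31.6 RPKM, and the anterior nasal libraries had 24.5, 5.39, 9.28 and 4.76 RPKM. The posterior nasal palate was the lowest compartment, at 2.64, 2.40 and 2.95 RPKM, and the posterior lateral libraries had 6.12, 4.91 and 5.55 RPKM. Posterior medial libraries measured 12.1, 7.60 and 5.90 RPKM and posterior oral libraries 3.84, 14.4 and 6.51 RPKM. Unlike Gja5, Gja4 was above 2 RPKM in all 25 libraries.

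Gkn3, a gastrokine gene known from arterial endothelium of the brain, was listed at 0 in 10 libraries, which include all 3 anterior medial and all 3 posterior medial libraries. It was at 7.16, 5.22 and 7.34 RPKM in the anterior lateral, at 6.17, 7.29 and 11.5 RPKM in the anterior oral, and at 6.60, 2.81, 2.78 and 5.36 RPKM in the anterior nasal libraries. Its highest posterior values were 2.80 RPKM in posterior nasal replicate 3 and 0.595 RPKM in posterior lateral replicate 1. All 10 anterior lateral, oral and nasal libraries were above every anterior medial library. The gene rests on few reads: about 17.1, 13.4 and 16.2 reads in the 3 anterior lateral libraries, counted on the 856 bases of its longest annotated transcript. A count of 0 allows a level of up to 0.644 to 1.51 RPKM in the 10 libraries at 0, the worth of 3 reads, and this covers counting error only. Gkn3 was listed at 0.0807 RPKM in posterior oral replicate 1 and 0.104 RPKM in posterior nasal replicate 1. There 3 reads on this length would be worth 0.561 and 0.577 RPKM, so both values lie below a single read. The length or the whole reads assumed here thus do not hold for all libraries, and these read numbers and limits are approximate.

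**Figure D2:**
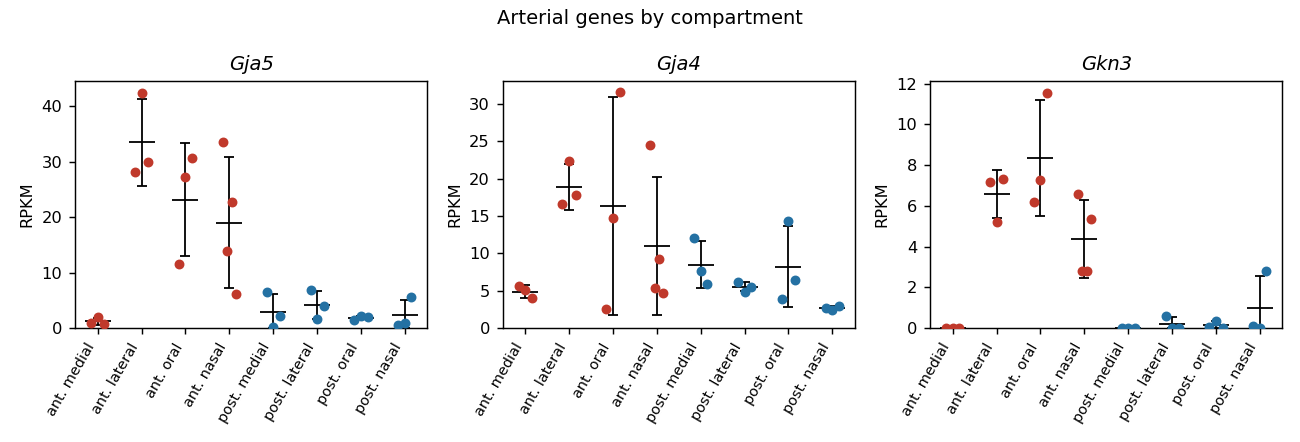
RPKM of Gja5, Gja4 and Gkn3 in each library (points; red, anterior; blue, posterior) by compartment, with the mean (horizontal line) and SD (bars, drawn no lower than 0; n = 3, or 4 for anterior nasal). The anterior lateral, oral and nasal libraries carry most of the signal, and the anterior medial libraries of Gja5 lie between 0.779 and 1.93 RPKM.

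In the comparison of anterior lateral with anterior medial palate, 34 of the 38 genes were tested. Of these, 4 were called higher and none lower, where 1.43% of the 10427 genes tested were called higher and 1.08% lower. Of the 38, 5 passed p under 0.05 without adjustment and a fold over 2, where 1.41% of genes did so in this direction: the 4 called genes and Cldn5. The called genes were Gja5, Gja4, Gkn3 and Ptprb, the vascular endothelial phosphatase gene that acts on Tek. Gja5 was higher by 4.74 ± 0.32 on the log2(RPKM + 0.1) scale (SE, n = 3 and 3, limma adjusted p = 0.000799) and Gja4 by 1.93 ± 0.17 (adjusted p = 0.00289). Gkn3 was called at an adjusted p of 3.06e-06, and no fold is given since it was listed at 0 in the medial libraries. Its medial values thus had no spread and a level set by the added 0.1, so this p leaves out their counting error. Gja5 and Gkn3 reached the minimum of 5 RPKM in 3 libraries only through the lateral libraries. Without anterior lateral replicate 1, 2 or 3 these genes no longer reached that minimum and 2, 1 and 1 genes were called. With the run as a term in a fit of all 25 libraries, no gene of the 38 was called, where 0 of 10427 genes were called. The Gja5 difference in that fit was 2.01 (adjusted p = 1).

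The anterior and posterior libraries differed in Gja5 as well. Over all 4 positions, Gja5 averaged 2.83 ± 2.31 RPKM in the 12 posterior and 19.2 ± 14.1 RPKM in the 13 anterior libraries (SD), and it fell by 2.47 ± 0.66 from anterior to posterior on the log2 scale (SE, adjusted p = 0.0321). Of the 38 genes, 29 were tested here and only Gja5 was called, where 1.66% of 8608 genes were called lower and 1.66% higher. Gja5 reached the minimum of 10 RPKM in 6 libraries only through anterior libraries, since its highest posterior value was 6.84 RPKM. Values within runs can be set beside this call. One run holds anterior lateral replicate 3, posterior lateral replicates 2 and 3 and posterior nasal replicate 3. In that order, Gja5 was at 30.0 RPKM against 1.72, 3.93 and 5.54 RPKM, and Gkn3 at 7.34 RPKM against 0, 0 and 2.80 RPKM. In the run of anterior oral replicate 3, anterior nasal replicate 4, posterior oral replicate 1 and posterior nasal replicate 1, Gja5 was at 30.6 and 6.10 RPKM in the anterior and at 1.56 and 0.494 RPKM in the posterior libraries. In the run with all 3 anterior medial libraries, Gja5 was at 0.779 to 1.93 RPKM there and at 0.134 and 2.21 RPKM in posterior medial replicates 2 and 3, which overlap. The Gja5 call was lost with the run in the fit of the compared libraries (fell by 1.71, adjusted p = 0.272), with no minimum (adjusted p = 0.0503), and on leaving out any of 9 libraries (adjusted p of 0.0528 to 0.0647): the 3 anterior lateral, anterior oral replicates 2 and 3, anterior nasal replicates 1 and 3, and posterior nasal replicates 1 and 2. It was kept in a fit of all 8 compartments with the run (fell by 2.95, adjusted p = 0.0211).

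Whether the lateral to medial difference itself differed between anterior and posterior was tested as an interaction. On the log2 scale this difference of differences was -2.49 ± 0.38 for Gja4 (SE, adjusted p = 0.166) and -3.45 ± 1.42 for Gja5 (adjusted p = 0.964). Neither was called, and none of the 34 genes tested was, where 1 of 11089 genes was called, 0.00902%. At an unadjusted p under 0.05, 3 of the 34 genes passed, namely Gja4, Gja5 and Gkn3, where 373 of 11089 genes did. Gja5 and Gkn3 would not have reached the minimum here without the anterior lateral libraries, where they were high. Without posterior medial replicate 3 the Gja4 value was -2.72 (adjusted p = 0.0359).

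The level of Gja5 was also set against that of Cdh5 in the same library, which no test accompanies. The ratio was 0.433 to 0.649 in the anterior lateral, 0.263 to 0.370 in the anterior oral, and 0.159 to 0.540 in the anterior nasal libraries. It was 0.0168 to 0.0456 in the anterior medial libraries. Posteriorly it was 0.00586 to 0.0815 medially, 0.0287 to 0.114 laterally, 0.0214 to 0.0368 orally and 0.0126 to 0.233 nasally, the last value again from posterior nasal replicate 3. In such bulk captures, fewer cells of a type and less RNA per cell cannot be told apart.

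Other genes of the arterial programme and of the vessel wall were compared as lists outside the 38, and Dll4 and Notch4 of the first are also counted among the further endothelial genes below. Of 16 arterial programme genes, 12 passed the minimum and 4 were called higher in anterior lateral than in anterior medial palate and none lower, where 1.43% of all genes tested were called higher. Hey2, a Notch target, averaged 7.58 against 1.53 RPKM (log2 difference 2.23 ± 0.15, SE, adjusted p = 0.000799), and Heyl, Unc5b and Nrp1 were higher by 1.67, 1.40 and 0.91. Hey2 reached the minimum of 5 RPKM in 3 libraries only through the lateral libraries. Of 14 smooth muscle and pericyte genes, 11 passed and 4 were called higher there, Actg2, Myh11, Abcc9 and Mcam, by 4.36, 3.07, 1.23 and 0.78. The summed level of the 14 was 279 to 280 RPKM in the anterior lateral and 149 to 206 RPKM in the anterior medial libraries. From anterior to posterior, 3 of 10 arterial programme genes tested were called lower (Nrp1, Eln and Cxcl12). Of 8 smooth muscle and pericyte genes tested, 3 were called lower (Abcc9, Actg2 and Rgs5). No gene of either list was called higher, and 1.66% of 8608 genes were called lower. Nrp1, a co-receptor for VEGF and semaphorins, averaged 38.8 RPKM in the anterior and 11.9 RPKM in the posterior libraries. These did not overlap, which held in this direction for 0.163% of genes tested. Epithelial and nerve genes were called in both directions. Of 12 epithelial genes, 2 were called lower laterally, Krt14 (8.42 against 37.6 RPKM) and Krt6a, and 1 higher, Krt8, with 4 of the 12 higher in the mean. Of 9 nerve genes, 1 was called lower, Prph (3.44 against 33.1 RPKM), and 1 higher, Sox10 (6.66 against 1.20 RPKM), with 6 of the 9 higher in the mean. Sox10, like Hey2, reached the minimum only through the lateral libraries. The part of these other cell types in the results on the 38 genes was not tested.

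Tek, the receptor for angiopoietins, differed by position in the same direction at both levels. It was at 14.2, 16.6 and 19.6 RPKM in the anterior lateral and at 8.23, 11.3 and 10.1 RPKM in the anterior medial libraries. The anterior oral libraries had 21.1, 21.3 and 14.8 RPKM and the anterior nasal libraries 8.89, 8.07, 7.72 and 7.47 RPKM. Posteriorly Tek was at 13.3, 20.4 and 15.7 RPKM laterally and at 7.28, 2.47 and 7.21 RPKM medially. The posterior oral libraries had 20.4, 15.9 and 17.3 RPKM and the posterior nasal libraries 6.49, 10.3 and 5.39 RPKM. All 12 lateral and oral libraries were thus above all 13 medial and nasal libraries, with 13.3 RPKM the lowest of the former and 11.3 RPKM the highest of the latter. This count was made after the values were seen. Of 11913 genes at 5 RPKM or more in at least 3 libraries, 1 had this order, 0.00839%, and it was Tek.

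Tested by comparison, Tek was higher in oral than nasal palate by 1.22 ± 0.23 on the log2 scale in the anterior (SE, adjusted p = 0.353) and by 1.31 ± 0.28 in the posterior palate (adjusted p = 0.0813). It was higher in lateral than medial palate by 0.76 ± 0.17 in the anterior (adjusted p = 0.0705) and by 1.66 ± 0.49 in the posterior palate (adjusted p = 0.957). None of these 4 comparisons called Tek. Without posterior medial replicate 2 the posterior lateral difference was 1.15, and in a fit of all 25 libraries it was called (1.66, adjusted p = 0.0248), but not with the run added to that fit (2.71, adjusted p = 0.749). The mean of the anterior and posterior oral to nasal differences, a comparison added after the data were seen, was 1.26 ± 0.17 (adjusted p = 0.00687). The Tek window, printed with that of Emcn because both genes were called by position, is chr4:94739039-94739338 on the + strand of GRCm38.p6, and the Emcn window is chr3:137340828-137341127 on the + strand.
Tek: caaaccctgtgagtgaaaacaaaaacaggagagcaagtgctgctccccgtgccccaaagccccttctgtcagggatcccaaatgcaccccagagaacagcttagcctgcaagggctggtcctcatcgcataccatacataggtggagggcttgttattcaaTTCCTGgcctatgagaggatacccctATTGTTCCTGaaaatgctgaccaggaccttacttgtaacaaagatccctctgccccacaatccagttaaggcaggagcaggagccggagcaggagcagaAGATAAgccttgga
Emcn: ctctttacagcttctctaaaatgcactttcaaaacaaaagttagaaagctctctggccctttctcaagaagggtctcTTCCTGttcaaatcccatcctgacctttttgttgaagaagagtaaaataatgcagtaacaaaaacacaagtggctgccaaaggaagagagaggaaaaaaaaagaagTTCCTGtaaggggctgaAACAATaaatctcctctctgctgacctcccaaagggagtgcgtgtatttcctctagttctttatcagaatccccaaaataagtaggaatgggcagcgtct
The Tek window held 2 CAGGAA matches, 1 AACAAT match that overlaps 1 of them, and 1 AGATAA match, and the Emcn window held 2 CAGGAA matches and 1 AACAAT match.

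Most of the 38 genes had a higher mean laterally in the anterior palate. There 32 of the 38 had a higher mean log2 level laterally, where 50.2% of all genes did, with a median difference of 0.40 against 0.00 for all genes. The lateral libraries lay wholly above the medial ones for 19 of the 38, against 10% of all genes above 0 there. Without the 3 arterial genes these counts were 29 and 16 of 35, with a median of 0.39. Ptprb, at 10.9, 12.4 and 10.5 RPKM laterally and 5.90, 4.98 and 4.22 RPKM medially, was called (1.16 ± 0.15, SE, adjusted p = 0.0103). Cldn5, a tight junction claudin, was at 14.7, 15.8 and 19.2 RPKM laterally and 10.8, 6.24 and 5.44 RPKM medially, a difference of 1.19 ± 0.25 that was not called (adjusted p = 0.0635). Plvap, the protein of fenestral diaphragms, and Ramp2 had lower means laterally, at 6.39 and 39.0 RPKM against 8.10 and 44.8 RPKM, and neither was called.

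In the posterior palate no gene of the 38 was called between lateral and medial palate by limma, where 0 of 10324 genes were called. At an unadjusted p under 0.05, 1 of the 38 passed, Tek, and 159 of all genes did. Of the 38 genes, 30 had a higher lateral mean, where 59.3% of all genes did, with a median difference of 0.43 against 0.15 for all genes. The lateral libraries lay wholly above the medial ones for 1 of the 38, Tek, against 4.08% of all genes. This leaned on posterior medial replicate 2: among the genes that passed the minimum, 25 of 32 were higher laterally with a median of 0.37, and without that library 17 of 31 with a median of 0.09. Apln, the ligand of Aplnr, is an example, with 7.12, 12.8 and 13.8 RPKM laterally and 10.5, 0.135 and 9.63 RPKM medially. Lyl1, a blood and endothelial transcription factor, went the other way in that library, with 11.1, 32.4 and 5.35 RPKM medially and 4.00 to 10.6 RPKM laterally.

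**Figure D3:**
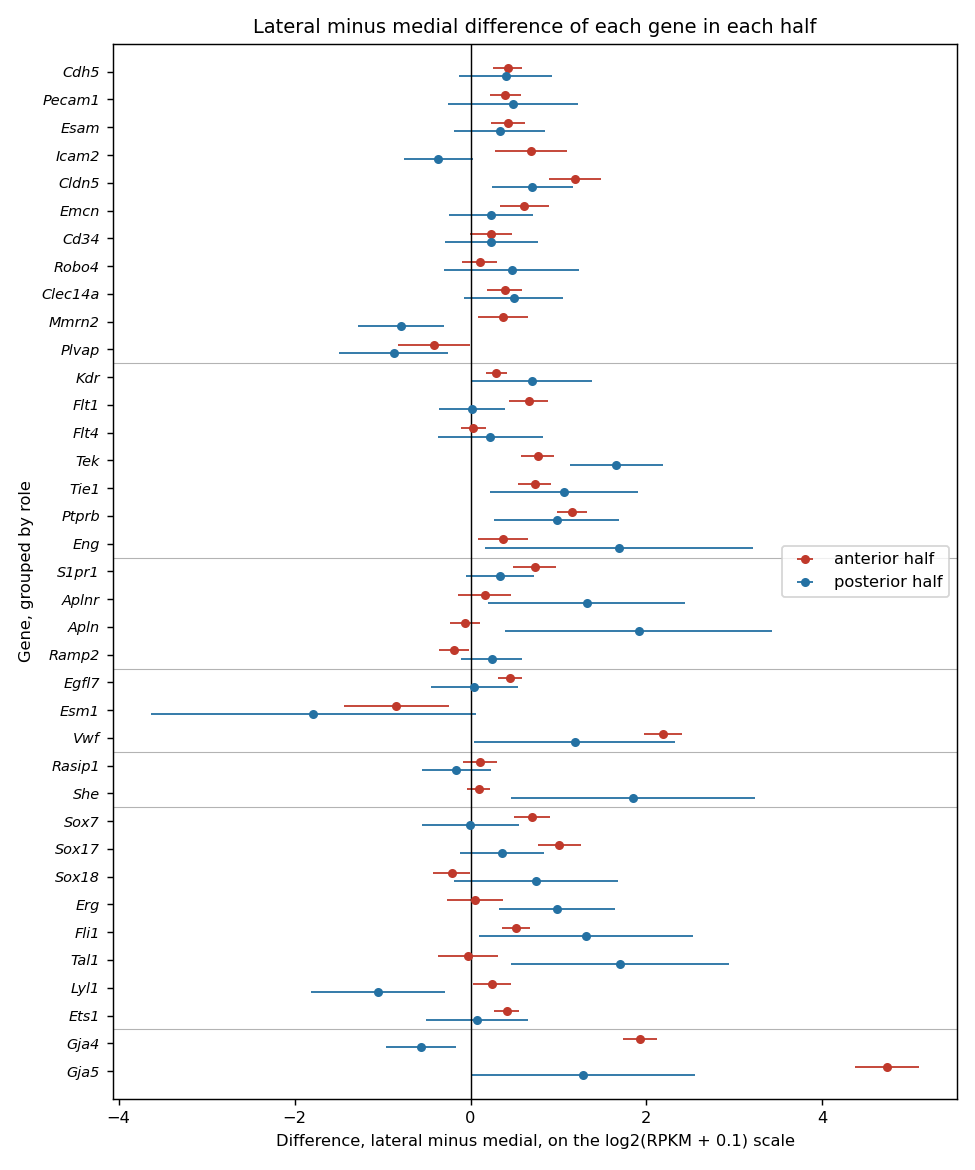
Lateral minus medial difference of each gene on the log2(RPKM + 0.1) scale, with its SE from a limma fit with no minimum, in the anterior (red) and posterior (blue) palate; Gkn3 is not drawn because it was listed at 0 in the medial libraries. Gja5, Vwf and Gja4 have the largest anterior differences drawn, at 4.74, 2.19 and 1.93, and posterior errors are wide for the genes that were low in posterior medial replicate 2.

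Between oral and nasal palate most of the endothelial genes had the higher mean orally. Posteriorly, 36 of the 38 had a higher oral mean on the log2 scale, with a median difference of 0.97, where 53.2% of all genes were higher and their median was 0.03. The oral libraries lay wholly above the nasal libraries for 25 of the 38, against 6.28% of all genes. In the anterior palate 35 of the 38 were higher orally, with a median of 0.66, where 41.3% of all genes were higher and their median was -0.09, and the libraries did not overlap for 6 of the 38, against 1.35% of all genes. The genes share cells and libraries and are not independent of each other.

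Calls of single genes were fewer. In the posterior palate 30 of the 38 genes were tested. Of these, 3 were called higher orally and none lower, where 0.586% of 10586 genes were called higher and 0.661% lower. Sox7, a SOX F factor, was at 12.7, 15.6 and 15.5 RPKM orally and 6.81, 6.36 and 5.13 RPKM nasally, a difference of 1.25 ± 0.21 (SE, adjusted p = 0.0374). Aplnr was at 41.6, 76.7 and 49.4 RPKM orally and 21.6, 20.2 and 18.6 RPKM nasally, a difference of 1.42 ± 0.26 (adjusted p = 0.0483). Emcn, the sialomucin endomucin of capillaries and veins, was at 28.1, 18.5 and 16.9 RPKM orally and 5.56, 6.49 and 8.85 RPKM nasally, a difference of 1.58 ± 0.28 (adjusted p = 0.0401). For each of these genes all 3 oral libraries were above all 3 nasal libraries. The calls lay near the threshold, and none remained with the run as a term or without any 1 of the 6 libraries.

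By the thresholds used in the study (p under 0.05 without adjustment, fold over 2), 13 of the 38 genes passed in the posterior palate, all higher orally, where 1.97% of genes passed higher and 1.52% lower. They include the junction genes Cdh5, Esam, Icam2 and Robo4, the receptors Tie1, Flt1 and Tek, and Ptprb, Plvap and Cd34 beside the 3 called genes. Ptprb reached the minimum of 5 RPKM in 3 libraries only through the oral libraries, since none of its nasal values reached 5 RPKM. Cdh5 was at 72.7, 74.9 and 53.6 RPKM orally and 39.2, 33.1 and 23.8 RPKM nasally (1.08 ± 0.26, adjusted p = 0.128). Robo4, a guidance receptor of vessels, had the largest difference of the 30 genes tested there, at 14.6, 14.4 and 10.6 RPKM against 5.72, 5.38 and 2.49 RPKM (1.60 ± 0.34, adjusted p = 0.0802). Erg ran the other way among the genes above the minimum, at 26.7, 8.59 and 11.2 RPKM orally and 26.3, 20.3 and 13.1 RPKM nasally, with overlapping libraries. S1pr1, a receptor for sphingosine 1-phosphate, was near level, with means of 19.2 RPKM orally and 18.3 RPKM nasally.

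**Figure D4:**
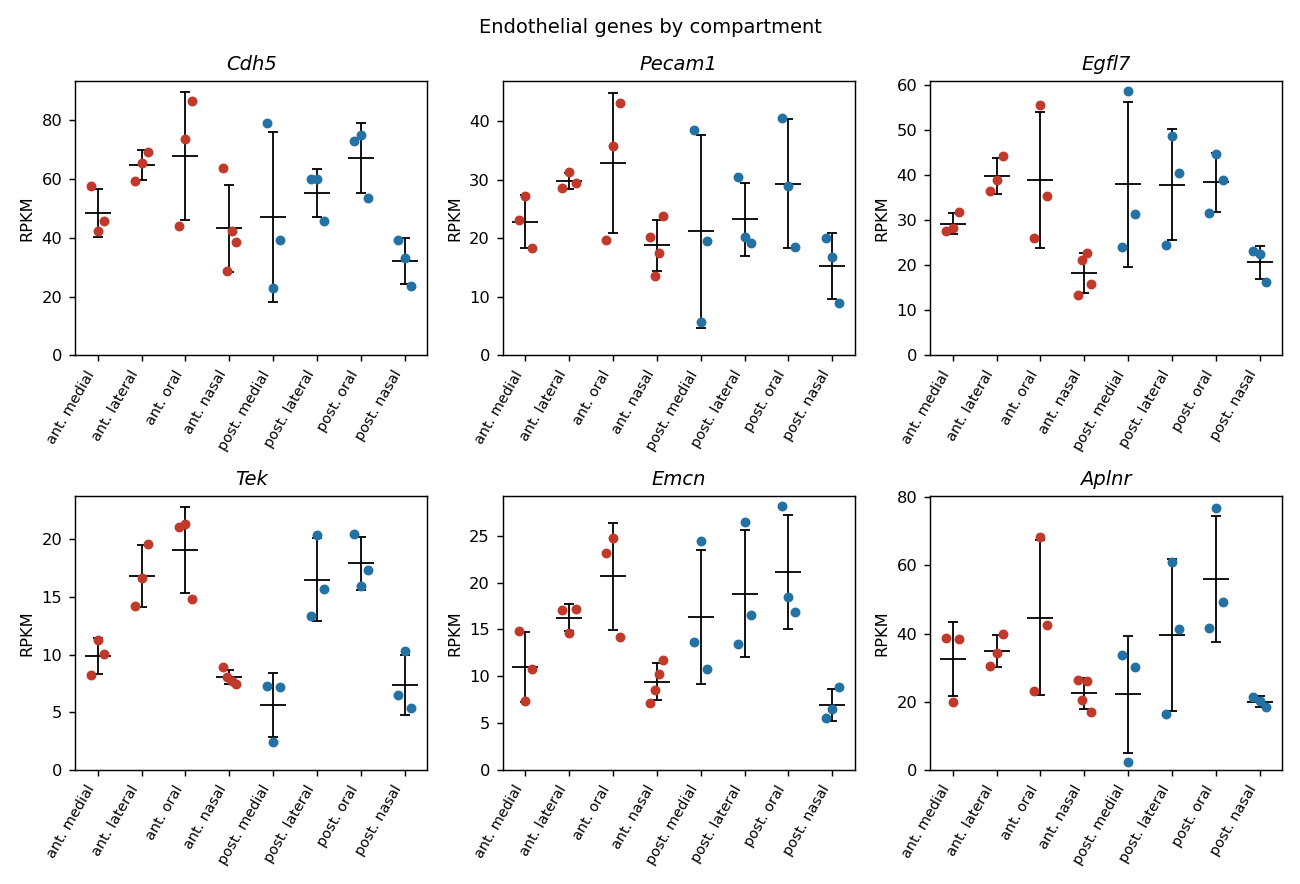
RPKM of 6 endothelial genes in each library (points; red, anterior; blue, posterior) by compartment, with the mean (horizontal line) and SD (bars; n = 3, or 4 for anterior nasal). Each gene has a higher mean in the oral than in the nasal palate at both levels, and for Tek the lateral and oral libraries, at 13.3 RPKM or more, are above all medial and nasal libraries.

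In the anterior palate no gene of the 38 was called between oral and nasal palate by limma, where 0 of 10684 genes were called. At an unadjusted p under 0.05, 8 of the 38 passed and 318 of all genes. By the study's thresholds 5 of the 34 genes tested passed, all higher orally, where 0.655% of genes passed higher: Egfl7, Fli1, Emcn, Tek and Clec14a. Emcn was at 23.1, 24.8 and 14.2 RPKM orally and 7.19, 8.53, 10.2 and 11.7 RPKM nasally (1.11 ± 0.29, SE, adjusted p = 0.877). Egfl7 was at 26.0, 55.5 and 35.2 RPKM orally and 13.5, 21.3, 22.6 and 15.8 RPKM nasally (1.05 ± 0.33, adjusted p = 1). Clec14a, an endothelial lectin, had 25.5, 17.1 and 12.9 RPKM orally and 11.0, 4.75, 5.08 and 8.39 RPKM nasally, its highest value coming from anterior oral replicate 1. For these genes no nasal library reached an oral one.

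These anterior counts depended on anterior oral replicate 1. Without it, 15 of the 34 genes above the minimum passed the study's thresholds, where 259 of 10456 genes passed in either direction. With it, 5 of 34 and 154 of 10684 genes passed. All 34 were higher orally without this library, against 32 of 34 with it. The median difference was 1.01 without it and 0.66 with it, and the median of all genes tested was 0.10 and -0.01. With the replicate number as a block, 3 passed the thresholds and 29 of 34 were higher, where 210 of 10684 genes passed in either direction. Whether libraries of equal number belong together is not settled. Anterior nasal replicate 4 has no oral library of its number, and leaving it out also gave 29 of 34 higher. Within runs the direction can be read apart from the run. In the run of anterior oral replicate 3 and anterior nasal replicate 4, 37 of the 38 genes were higher orally, with a median of 1.10, where 53.6% of genes were higher. In the run of anterior oral replicate 2 and anterior nasal replicate 3, 35 were higher, with a median of 0.95, where 58.8% of genes were higher. In the run of anterior oral replicate 1 with anterior nasal replicates 1 and 2, 16 of 38 were higher, with a median of -0.12, where 41.7% of genes were higher and their median was -0.15. Posteriorly 36 and 37 of the 38 were higher within the 2 runs that hold both positions, with medians of 0.80 and 0.91, where 49.9% and 45.2% of genes were higher.

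**Figure D5:**
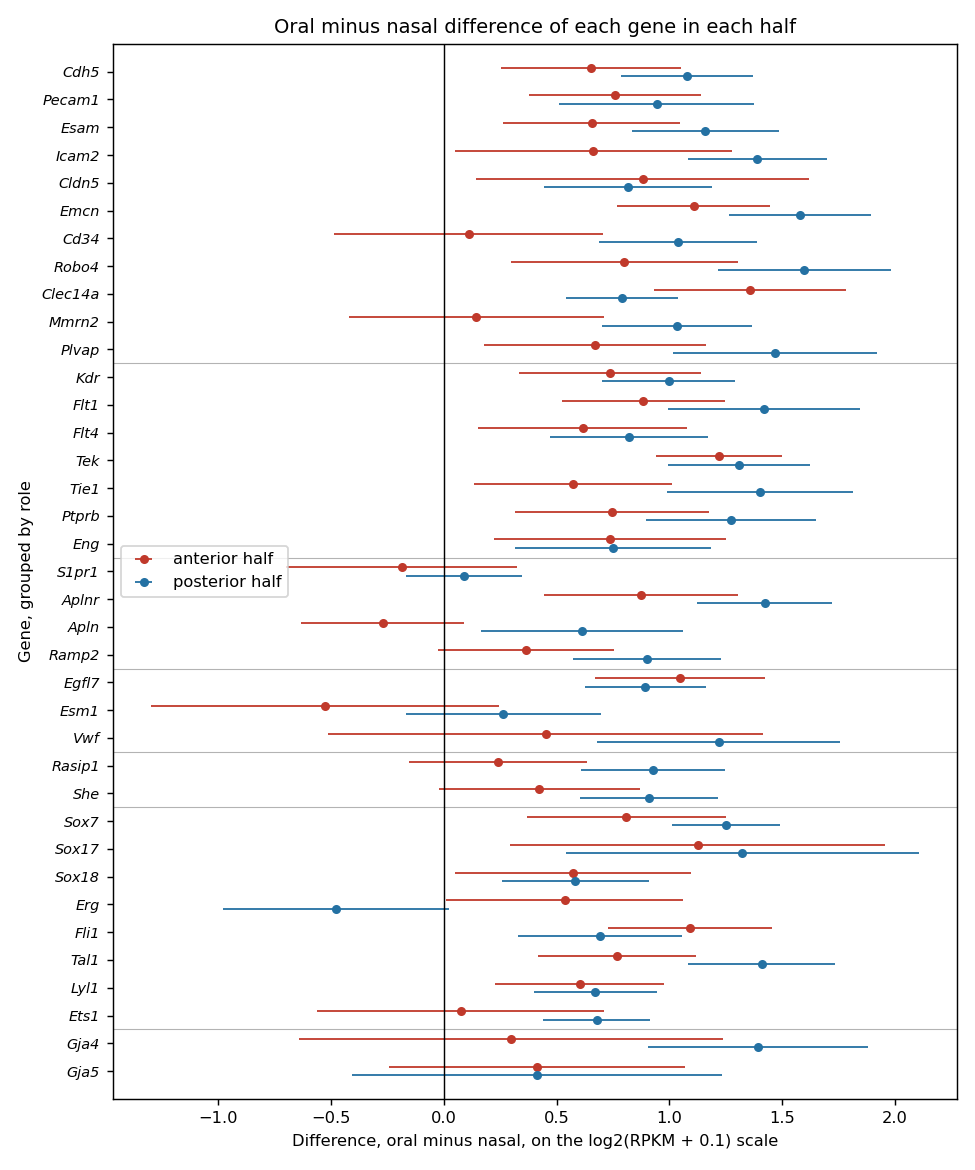
Oral minus nasal difference of each gene on the log2(RPKM + 0.1) scale, with its SE from a limma fit with no minimum, in the anterior (red) and posterior (blue) palate; Gkn3 is not drawn because it was listed at 0 in some libraries. Most points lie right of 0 at both levels, and Erg in the posterior and S1pr1, Apln and Esm1 in the anterior palate lie left of it.

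Taken over both levels, the mean oral to nasal difference was tested for 35 of the 38 genes. It was called for 6, all higher orally, where 0.717% of 11442 genes were called higher. Besides Tek these were Emcn (1.34 ± 0.21, SE, adjusted p = 0.0103), Tal1 (1.09 ± 0.21, adjusted p = 0.0351), Clec14a (1.07 ± 0.23, adjusted p = 0.0494), Aplnr (1.15 ± 0.25, adjusted p = 0.0488) and Egfl7 (0.97 ± 0.21, adjusted p = 0.0488). Of these, Tek, Emcn, Egfl7, Clec14a and Tal1 had no overlap between the 6 oral and the 7 nasal libraries, which holds for 0.211% of all genes. Tal1 reached the minimum of 5 RPKM in 3 libraries only through oral libraries, since its highest nasal value was 2.63 RPKM in posterior nasal replicate 2. With the replicate number as a block, 3 of the 38 were called instead of 6. With the run as a term in the fit of these libraries none of the 38 was called, and the Tek and Emcn differences were 1.17 and 1.44 (adjusted p = 0.0560 and 0.0596). The difference of the oral to nasal differences between posterior and anterior palate was called for none of 35 genes tested, with an unadjusted p under 0.05 for 0 of them, where 0.035% of 11442 genes were called. For Cdh5 it was 0.43 ± 0.46 and for Tek 0.09 ± 0.35.

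Other cell types changed between oral and nasal palate as well. Osteoblast genes were called lower orally in the posterior palate, 4 of the 4 tested: Runx2, Sp7, Ibsp and Panx3. Sp7 averaged 9.57 RPKM orally and 82.8 RPKM nasally. The summed level of the 7 osteoblast genes was 55.5 to 78.9 RPKM in the posterior oral and 346 to 484 RPKM in the posterior nasal libraries, and 24.6 to 37.98 RPKM and 46.2 to 94.7 RPKM in the anterior. Red cell genes summed to 853 to 1200 RPKM in the posterior oral and 432 to 771 RPKM in the posterior nasal libraries, with none of 6 called, and to 485 to 613 and 465 to 646 RPKM in the anterior, where they overlap. Of 23 further endothelial genes above 0, 22 were higher orally at each level, with medians of 0.89 in the posterior and 0.58 in the anterior palate and none called. Of 3 venous genes, 1 was higher orally in the mean of both levels, Nr2f2, which was called (1.12 ± 0.20, adjusted p = 0.0216), and Nrp2 was called lower orally in the posterior palate (-1.53 ± 0.28, adjusted p = 0.0437). Of the VEGF and angiopoietin ligands none was called, and Angpt1, a ligand of Tek, averaged 28.1 RPKM in the posterior oral and 13.2 RPKM in the posterior nasal libraries (adjusted p = 0.288). The part of osteoblasts, red cells or sequencing run in the endothelial difference was not tested further.

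Between posterior and anterior palate, no gene but Gja5 was called. Of the 38 genes, 14 had a higher posterior mean on the log2 scale, where 39.7% of all genes did, with a median of -0.17 against -0.09 for all genes, and the 3 arterial genes were among the 24 lower ones. Esm1 and Sox17, too low to be tested, differed by -1.84 ± 0.56 and -1.27 ± 0.40 in the fit with no minimum (SE). Erg, Flt4 and Ptprb had the next largest differences among the 29 genes tested after Gja5 and Gja4, which was at -0.81 ± 0.38 (SE, adjusted p = 0.300). They were at 0.61 ± 0.26 (adjusted p = 0.251), 0.57 ± 0.23 (adjusted p = 0.219) and -0.73 ± 0.30 (adjusted p = 0.224). Flt4, the VEGFC receptor, reached its highest value, 31.7 RPKM, in posterior lateral replicate 1, a library that also held the highest Erg value, 39.3 RPKM. Without posterior medial replicate 2 and anterior oral replicate 1, 15 of the 29 genes tested were higher in the posterior palate, against 10 of 29 with them.

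Vwf, Sox17 and Esm1 fell below the minimum in every comparison, and Tal1 in all but the test over 8 compartments and the oral to nasal comparisons over both levels. Vwf, the von Willebrand factor, was at 2.77, 3.58 and 2.96 RPKM in the anterior lateral and at 0.481, 0.794 and 0.558 RPKM in the anterior medial libraries, which do not overlap. Sox17, the SOX F gene of arterial endothelium, had 3.48, 3.26 and 4.19 RPKM laterally and 1.44 to 2.44 RPKM medially in the anterior palate, and 0.213, 1.53 and 0.235 RPKM in the posterior nasal libraries. Its highest value, 10.4 RPKM, came from anterior oral replicate 1. Esm1, a proteoglycan of vessel tip cells, was listed at 0 in 3 posterior libraries and was at most 4.79 RPKM. Tal1, a blood and endothelial transcription factor, was at 3.90 to 6.07 RPKM in the posterior oral and 1.46, 2.63 and 1.79 RPKM in the posterior nasal libraries.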

How the data were processed

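RNA-seq was measured in 25 laser captured palate libraries. The authors deposited RPKM values per gene; they amplified the RNA, sequenced single-end reads, removed duplicate and multiply aligned reads and used GeneSpring, and the submitters' processing notes name TopHat and the mm9 build. The gene annotation is not given in the sources used here, and the strand of the counting is not stated, so overlapping antisense genes cannot be told apart. Genes and lists were chosen with earlier results of these data known. From the RPKM values, log2(RPKM + 0.1) was tested with limma 3.58.1 in R 4.3.3, tested first on simulated data, on genes with at least 5 RPKM in 3 compared libraries, or 10 RPKM in 6 for posterior against anterior. Folds on this scale understate changes of low genes. A gene was called at a Benjamini-Hochberg adjusted p under 0.05 over all genes tested. Any of the 38 could be named with its level, and its difference and p were to be given where it was called, passed the study's thresholds or was among the 5 largest differences of a comparison; Tek in the anterior lateral comparison, Erg, S1pr1 and the interaction values of Cdh5 and Tek were named after their values were seen. Alternatives changed the pseudocount, scaling, minimum, libraries fitted, run and replicate terms. The labels do not say whether libraries of equal replicate number are pairs. Deviations of same-numbered anterior oral and nasal libraries correlated at 0.239, 0.215 and 0.130, and these libraries shared a run for replicate 1 only. In the other comparisons at least 1 number did not reach 0.1, although the highest, posterior oral and nasal replicate 3, was at 0.418. Runs were read from alignment names. RPKM carries no counts; depth was estimated from the smallest steps and GENCODE transcript lengths.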

Additional observations from a re-analysis of the deposited data

Results flagged for a closer look

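In the anterior nasal palate, the only compartment with 4 libraries, 3 of the 38 genes had a value far from the other 3, where chance gives about 1 in 20 groups. Flt4 was at 12.1 RPKM in replicate 4 against 6.19, 5.67 and 5.34 RPKM in the others. Ramp2 was at 21.3 RPKM in replicate 3 against 42.5, 46.5 and 46.6 RPKM. Vwf was at 3.29 RPKM in replicate 1 against 1.48, 1.33 and 1.44 RPKM.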

How the results depend on the processing

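Counts are of the 38 genes called. Between anterior lateral and medial palate, 4 became 2 with all 25 libraries in one fit and 0 with the run added, and 1 to 6 on leaving out a library. Of all 10427 genes, 262 were called in the main fit, 31 in the fit of all libraries and 0 with the run added. Between posterior lateral and medial palate, 0 became 1 in one fit of all libraries and stayed at 0 on leaving out any library. Between posterior oral and nasal palate, 3 became 1 in one fit of all libraries and 0 with no minimum, with at least 1 RPKM in 3 samples, with the run in either fit, and on leaving out any library. Between posterior and anterior palate, 1 became 2 with at least 1 RPKM in 3 samples, 0 with the run in the fit of compared libraries, and 0 to 1 on leaving out a library. Among the 8 compartments, 4 became 8 with quantile normalization, 2 with the run in either fit, 15 without the 2 libraries that stood apart, and 3 to 9 on leaving out a library. The interaction of lateral to medial with level went from 0 to 1 with a pseudocount of 1 or with the run in either fit, and lay at 0 to 1 on leaving out a library. The mean oral to nasal difference went from 6 to 3 with a pseudocount of 0.01, 2 with no minimum or at least 1 RPKM in 3 samples, 1 with the run in a fit of all libraries, 0 with the run in the fit of compared libraries, and 2 to 9 on leaving out a library. Eng between posterior lateral and medial palate turned from 1.68 to -0.13 without posterior medial replicate 2, and reached 2.85 without posterior medial replicate 1. Of the values of named genes under the alternatives, 968 kept direction and side of the threshold, 127 fell short of it, 14 passed it and 1 turned. The cause of these changes was not tested. The run in the fit of compared libraries, the fits without the 2 libraries and the mean oral to nasal comparison were added after the data were seen, and the first could not be fitted for either lateral to medial comparison.

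With the replicate number as a block, the anterior oral to nasal count stayed at 0. The block took the mean oral to nasal count from 6 to 3 and the posterior oral to nasal count from 3 to 0. Whether libraries of equal number belong together is not settled in any comparison. No other count of calls moved by more than 1.5 times under the block.

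RPKM without counts leaves depth approximate, and at a median of 3.27 implied megareads differences in genes under a few RPKM, such as Gkn3, Esm1, Sox17 and Vwf, rest on few reads. With 3 or 4 libraries per compartment, an uncalled difference does not show that levels were alike.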
